A study of Mus musculus with 34 samples.

Results

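Mouse CAD cells that received a synthetic miR-137 (a miR-137 mimic) were set against CAD cells that received pUC19 plasmid DNA, with serum present in both. The comparison uses 4 of the 34 libraries of the series, 2 in each group, chosen by their titles, and covers all genes. The series measured RNA and small RNA in CAD cells, a catecholaminergic neuronal line that leaves the cell cycle and grows processes when serum is taken away, and its other libraries compare wild-type with miR-138 knockout cells and follow serum withdrawal. All libraries described here carry the genotype label mir-138 DKO, a double knockout of the miR-138 genes, so the pUC19 cells carry that label too. The miR-137 cells were given a mirVana miR-137 mimic at 3 nM with the lipid reagent RNAiMAX, and RNA was taken 48 h later, at day 0 of serum withdrawal. For pUC19 the labels name no dose and no reagent. pUC19 is DNA and not a small RNA, so an effect of the miR-137 sequence and an effect of receiving a small RNA in place of DNA cannot be told apart in this pair alone. Other libraries from the same experiment are therefore given beside it, with 2 in each group: DKO cells given a miR-138 mimic at 3 nM in serum, cells titled DKO_2 with no transfection named in serum, and DKO cells given miR-137 mimic or pUC19 and then kept 2 days without serum. What the 2 in DKO_2 marks is not stated, nor is how many clones the DKO cells represent. The labels say that libraries were made in duplicate but not whether each came from its own culture, so the p-values reflect library-to-library spread, which may be technical.

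A miRNA guides an Argonaute protein to messenger RNAs that pair with its seed, a short stretch near its 5′ end, mostly through sites in 3′ UTRs, and the bound messenger is translated less and degraded faster. miR-137 is known as a brain-enriched miRNA that acts on neuronal differentiation and synapses, and as a growth suppressor in several tumours, among them neuroblastoma. Its reported targets include chromatin enzymes, transcription factors and synaptic proteins.

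The guide arm of miR-137 is printed with the guide arm of miR-138, because the seeds show how the 2 mimics differ. The capitals mark the seed, bases 2 to 8 from the 5′ end. Sequences and coordinates are RefSeq's, on build GRCm38.p6, and the labels do not describe the mimics' own chemistry.
mmu-miR-137-3p: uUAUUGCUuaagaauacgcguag
mmu-miR-138-5p: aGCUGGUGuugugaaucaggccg
The mature miR-137-3p lies on chr3:118433901-118433923, plus strand. Neither seed occurs at bases 2 to 8 of any other of the 1679 mature mouse miRNAs in that table. mmu-miR-138-5p is encoded at 2 places, chr8:94324312-94324334 and chr9:122682898-122682920, both on the plus strand.

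The 4 libraries held between 12885638 and 18805687 reads assigned to genes. Replicates correlated at r = 0.9945 in the miR-137 group and 0.9943 in the pUC19 group, across genes on the log2 CPM scale, where CPM is the count scaled to library size. PolyA libraries do not measure a mimic or a mature miRNA: Mir137 and Mir138-2 had 0 counts in all 14 libraries of the experiment. Mir138-1, a hairpin gene of the knocked-out miRNA, had 18 and 16 reads with miR-137 mimic, against 18 and 15 with pUC19, so these reads do not show its loss. The label of a catecholaminergic line was only partly borne out by markers. The transporter genes Slc6a2, Slc6a3 and Slc18a2 had 0 counts in all 4 libraries, and Th, which encodes the rate-limiting enzyme of catecholamine synthesis, had 1 and 0 reads with mimic against 1 and 1 with pUC19. The neuronal RNA-binding protein gene Elavl4 had 1493 to 3800 reads per library. The summed level of the 10 neuronal markers was 495 and 490 CPM with mimic, against 294 and 296 CPM with pUC19. Markers of other cells stood low or mixed: 7 astrocyte markers summed to 0.818 and 0.954 CPM with mimic against 1.6 and 1.94 CPM with pUC19, 6 fibroblast markers to 4.53 and 3.88 against 7.23 and 6.98 CPM, and 6 immune markers to 0.755 and 0.749 against 0.691 and 0.854 CPM. For 7 oligodendrocyte and Schwann markers the sums were 88.4 and 87.9 CPM with mimic against 68.8 and 76.2 CPM with pUC19, nearly all of it Pmp22, with Mog and Sox10 at 0. For 6 endothelial markers they were 13.3 and 13.3 against 12 and 14 CPM, with Cdh5 at 0. Muscle markers summed to 3.59 and 4.29 against 0.691 and 1.01 CPM, with Myod1 at 0. Most of that sum with mimic was Actc1, cardiac actin, with 51 and 48 reads with mimic against 3 and 3 with pUC19, named after its value was seen. The part of these marker differences in the results below was not tested.

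Of 12655 genes tested, 2922 were higher with miR-137 mimic (23.1%) and 2848 were lower (22.5%), at a false discovery rate of 0.05 in edgeR's quasi-likelihood test. With that many calls, most were small, and the smallest called change was 0.118 on the log2 scale. Changes of at least 2-fold were less evenly split: 128 genes were higher (1.01%) and 513 were lower (4.05%). Just inside that line stood Chpt1 at a log2 fold change of -1 and Sh2b3 at 1.002, and just outside it Opcml at -0.9991 and Rgs9bp at 0.9979. The median over all genes tested was -0.007, and -0.003 with RLE scaling in place of TMM. Unless another group is named, fold changes are miR-137 mimic over pUC19 as log2 values, given ± their standard error (SE).

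**Figure D1:**
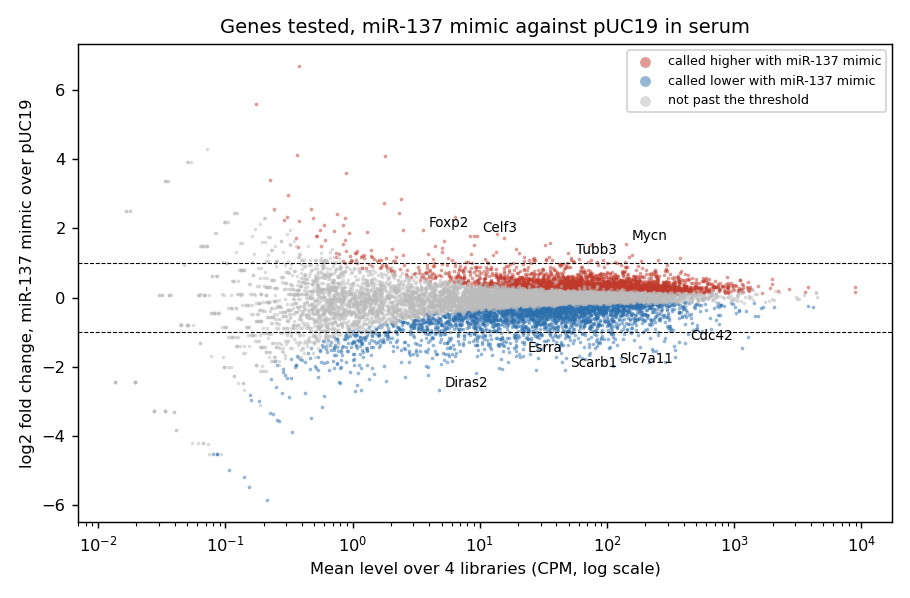
Each point is a gene tested in serum. The x axis gives its mean level over the 2 miR-137 mimic and 2 pUC19 libraries (CPM, log scale), the y axis the log2 fold change of mimic over pUC19, with dashed lines at 2-fold. Below 2-fold lower lie 513 called genes, against 128 above 2-fold higher, and Diras2, Esrra, Scarb1 and Slc7a11 are among the falls.

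The reported targets of miR-137 were lower as a group. Of 34 listed genes, 27 had enough reads to be tested, and of these 24 fell (88.9%, beside 22.5% of all genes), 1 rose and 2 did not pass the test. Their median log2 fold change was -0.77, beside -0.007 over all genes. The list was drawn from literature knowledge with earlier results of these data known, so the count is a description. Slc1a5, which encodes a glutamine transporter, had 45.0 and 46.2 CPM with mimic, against 117 and 122 CPM with pUC19. Cdc42, a small GTPase of the cytoskeleton, had 230 and 238 CPM with mimic, against 624 and 550 CPM with pUC19. Esrra, an orphan nuclear receptor of mitochondrial metabolism, had 10.8 and 9.85 CPM with mimic, against 32.0 and 34.2 CPM with pUC19. In none of these did the groups overlap, and the mimic libraries were the low ones each time. List members were picked by lowest adjusted p, so the separation of these was favoured by that choice. The log2 fold changes were -1.39 ± 0.06 for Slc1a5 (SE, adjusted p = 9.64e-13), -1.33 ± 0.06 for Cdc42 (adjusted p = 1.51e-12) and -1.68 ± 0.10 for Esrra (adjusted p = 7.79e-11).

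Chromatin and transcription factor genes on the list behaved unequally. Kdm5b, a histone H3K4 demethylase, had 27.9 and 29.9 CPM with mimic, against 65.7 and 63.4 CPM with pUC19 (-1.16 ± 0.07, adjusted p = 6.13e-11). Kdm1a, the demethylase LSD1 of the REST corepressor complex, had 136 and 132 CPM with mimic, against 183 and 182 CPM with pUC19, a smaller fall of 0.45 on the log2 scale (SE 0.05, adjusted p = 8.14e-07). Tcf4, a neurodevelopmental transcription factor, had 217 and 232 CPM with mimic, against 441 and 420 CPM with pUC19 (-0.94 ± 0.05, adjusted p = 3.27e-11). Mitf, the melanocyte lineage factor, had 9.58 and 10.2 CPM with mimic, against 30.7 and 27.1 CPM with pUC19 (-1.55 ± 0.11, adjusted p = 1.07e-09). Mib1, an E3 ligase that activates Notch ligands, had 112 and 121 CPM with mimic, against 206 and 193 CPM with pUC19 (-0.77 ± 0.06, adjusted p = 1.66e-09). Ezh2, the methyltransferase of the Polycomb complex PRC2, overlapped, with 195 and 204 CPM with mimic against 209 and 191 CPM with pUC19 (-0.01 ± 0.07, adjusted p = 0.943), and both groups stood below DKO_2 cells, the mimic at -0.24 (adjusted p = 0.00625) and pUC19 at -0.24 (adjusted p = 0.0162). E2f6, a repressive E2F, stood at -0.11 ± 0.09 (adjusted p = 0.36), and Ywhaz, a 14-3-3 protein, was higher at 0.50 ± 0.05 (adjusted p = 2.33e-07), with 524 and 489 CPM against 373 and 343 CPM. E2f6 and Ywhaz are named because the counts they make up are small, after their values were seen. Cdk6, a G1 kinase on the list, had too few reads to be tested.

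**Figure D2:**
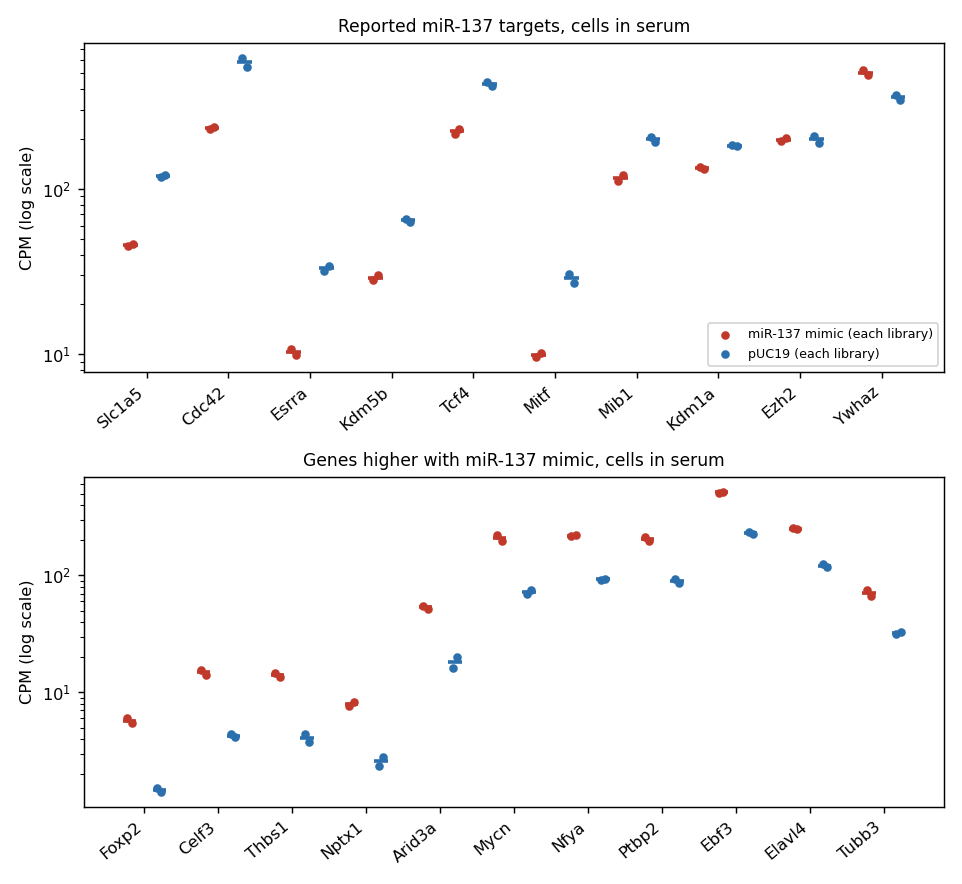
Each point is a library of cells in serum, red for miR-137 mimic and blue for pUC19, and the bar is the mean of the 2 libraries; the y axis is CPM on a log scale. In the upper panel the reported targets from Slc1a5 to Kdm1a are lower with mimic, Ezh2 overlaps and Ywhaz is higher, and in the lower panel every plotted gene, from Foxp2 to Tubb3, is higher with mimic.

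The targets were also set against the other groups in serum. Against the miR-138 mimic, which shares a synthetic small RNA and dose, 24 of the 27 targets were lower with miR-137 mimic and 3 were higher, with a median of -0.79. That comparison called 3886 genes higher (30.7%) and 4133 lower (32.7%). Against the cells titled DKO_2, in which no transfection is named, 24 were lower and 1 was higher, with a median of -0.69, where 23.7% of all genes were called higher and 27.5% lower. These contrasts share the miR-137 libraries with the one against pUC19, so they are side-by-side values. For Cdc42 the level was 633 CPM with miR-138 mimic and 641 and 608 CPM in the DKO_2 cells. For Esrra it was 48.8 CPM with miR-138 mimic and 31.9 and 32.2 CPM in the DKO_2 cells. For both genes the miR-137 libraries were the lowest in serum, and the DKO_2 libraries lay close to those of pUC19. For Tcf4 the miR-138 mimic cells were also low, at 245 CPM, while the DKO_2 cells had 548 and 519 CPM. In the miR-138 mimic against pUC19, 7 of the 27 miR-137 targets were higher and 12 were lower (median 0), where 28.7% of all genes were higher and 27.3% lower.

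Of 20 reported miR-138 targets, 17 were tested. With miR-137 mimic 7 rose (41.2%, beside 23.1% of all genes) and 2 fell (11.8%, beside 22.5%). The other 8 did not pass the test, and the median was 0.03. The 2 that fell were 1 without miR-137 replicate 1. With miR-138 mimic against pUC19, 3 rose and 14 fell, with a median of -0.79, where 28.7% of all genes were higher and 27.3% lower. Rhoc, a small GTPase of cell motility, had 152 and 148 CPM with miR-137 mimic, against 108 and 108 CPM with pUC19, and 45.8 CPM with miR-138 mimic. Ccnd3, cyclin D3, had 231 and 199 CPM with miR-137 mimic, against 150 and 160 CPM with pUC19, and 49.0 CPM with miR-138 mimic. Mxd1, a MYC-antagonising factor, went the other way, with 2.20 and 2.36 CPM with miR-137 mimic against 7.27 and 6.76 CPM with pUC19 (-1.63 ± 0.17, adjusted p = 1.95e-07). Sox4, a neural progenitor factor, was higher at 0.35 ± 0.06 (adjusted p = 9.78e-05), a call that was lost in unstranded counts (0.15, adjusted p = 0.193).

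Many of the deepest falls lay outside the target list. Diras2, a Ras-family GTPase of the nervous system, had 0.998 and 1.57 CPM with mimic, against 8.30 and 8.17 CPM with pUC19, a log2 fold change of -2.69 ± 0.28 (adjusted p = 1.57e-07). Rims4, a protein of the presynaptic active zone, had 5.59 and 5.93 CPM with mimic, against 22.9 and 25.4 CPM with pUC19 (-2.06 ± 0.11, adjusted p = 2.89e-11). Kcnmb2, a BK potassium channel subunit, had 2.46 and 2.86 CPM against 8.96 and 10.1 CPM (-1.83 ± 0.17, adjusted p = 5.65e-08). These 3 were picked by rule as large falls with separate groups, so their shared direction and separation were fixed by that choice. Among genes of membrane and lipid traffic, Scarb1, the HDL receptor, had 15.3 and 20.3 CPM with mimic, against 76.4 and 75.5 CPM with pUC19 (-2.10 ± 0.09, adjusted p = 1.51e-12). Ap1s3, a subunit of the clathrin adaptor AP-1, had 3.72 and 3.00 CPM against 15.5 and 14.8 CPM (-2.17 ± 0.14, adjusted p = 3.36e-10). Lpp, a LIM protein of focal adhesions, had 8.98 and 11.9 CPM against 44.5 and 45.2 CPM (-2.10 ± 0.12, adjusted p = 3.36e-11).

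The deepest falls among genes with at least 100 CPM were in metabolism, signalling and stress. Ahcyl1, an IP3 receptor regulator, had 83.9 and 99.2 CPM with mimic, against 343 and 327 CPM with pUC19 (-1.87 ± 0.07, adjusted p = 2.38e-13). Slc25a5, an ADP/ATP carrier of the inner mitochondrial membrane, had 58.1 and 60.3 CPM with mimic, against 205 and 192 CPM with pUC19 (-1.75 ± 0.07, adjusted p = 2.32e-13). Dusp4, a phosphatase of ERK and other MAP kinases, had 160 and 158 CPM with mimic, against 508 and 539 CPM with pUC19 (-1.72 ± 0.06, adjusted p = 7.13e-14). For all 3 the DKO_2 cells were nearer to pUC19 than to the mimic, with 363 and 347 CPM of Ahcyl1, 278 and 280 CPM of Slc25a5, and 380 and 386 CPM of Dusp4. Lesser levels but falls of like size were seen for Nutf2, the nuclear importer of Ran (-1.88 ± 0.11), Anapc13, a subunit of the anaphase-promoting complex (-2.03 ± 0.12), Ppp1r14b, an inhibitor of protein phosphatase 1 (-1.87 ± 0.10), and Cyp2s1, a cytochrome P450 (-2.24 ± 0.23). Gsta3, a glutathione transferase, stood at -2.02 ± 0.26 and the histone gene Hist1h2bc at -1.87 ± 0.20. For these last the fall was smaller against DKO_2 cells, at -1.19 for Gsta3 and -0.62 for Hist1h2bc. The largest adjusted p among these 6 was 2.59e-06, for Gsta3. Reads of a histone gene can be shared with near-identical copies, so the Hist1h2bc value is uncertain.

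For another set of falls the pUC19 cells stood well above the DKO_2 cells, and the mimic cells stood nearer to them. Slc7a11, the cystine importer for glutathione synthesis, had 44.6 and 45.4 CPM with miR-137 mimic, against 184 and 173 CPM with pUC19, and 41.4 and 36.2 CPM in the DKO_2 cells. Hmox1, haem oxygenase 1 of the oxidative stress response, had 129 and 118 CPM with mimic, against 451 and 443 CPM with pUC19, and 86.8 and 88.6 CPM in the DKO_2 cells. Against pUC19 they fell by 1.99 and 1.86 on the log2 scale (adjusted p = 3.78e-13 and 1.8e-13). Against the DKO_2 cells the same mimic libraries were higher, by 0.21 for Slc7a11 (adjusted p = 0.0404) and 0.49 for Hmox1 (adjusted p = 6.98e-06). The miR-138 mimic cells had 52.9 CPM of Slc7a11 and 109 CPM of Hmox1. In both genes the pUC19 level was thus the high one among the groups in serum.

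Genes linked to ATF4, the transcription factor of the amino acid and endoplasmic reticulum stress response, were mostly lower with mimic than with pUC19 and mostly higher with mimic than in DKO_2 cells. Against pUC19, 13 of 19 tested fell (68.4%, beside 22.5% of all genes), 2 rose (10.5%, beside 23.1%) and 4 did not pass the test (median -0.41). The 2 that rose were Psat1, an enzyme of serine synthesis (0.33 ± 0.06, adjusted p = 0.000288), and Asns, asparagine synthetase (0.18 ± 0.05, adjusted p = 0.0103), and without miR-137 replicate 1 the Asns call was lost (0.14, adjusted p = 0.114). Psat1 and Asns were named after their values were seen. Against the DKO_2 cells, 15 of the 19 were higher with miR-137 mimic and 2 were lower (median 0.26). In that contrast 23.7% of all genes were higher and 27.5% lower. The pUC19 cells against DKO_2 had 16 higher and 0 lower in edgeR's test (median 0.66), where 10.7% of all genes were higher and 15.5% lower. Ddit3, the stress factor CHOP, had 22.4 and 22.6 CPM with mimic, against 60.6 and 62.2 CPM with pUC19, and 4.90 and 5.75 CPM in DKO_2 cells. Trib3, a pseudokinase induced by CHOP, had 24.7 and 25.3 CPM with mimic, against 63.5 and 65.4 CPM with pUC19, and 11.0 and 12.1 CPM in DKO_2 cells. The mimic level thus lay between the others, with log2 fold changes of -1.45 for Ddit3 and -1.37 for Trib3 against pUC19 (adjusted p = 2.3e-09 and 1.53e-10). Ddit4, an mTORC1 inhibitor, was lowest with mimic, at 99.8 and 97.2 CPM, against 237 and 223 CPM with pUC19 and a mean of 134 CPM in DKO_2 cells (-1.23 ± 0.08 against pUC19, adjusted p = 1.46e-10). Aldh1l2, a mitochondrial folate enzyme, was likewise lowest with mimic, at 42.1 and 49.4 CPM, against 82.8 and 85.4 CPM with pUC19 and 62.7 and 65.8 CPM in DKO_2 cells.

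**Figure D3:**
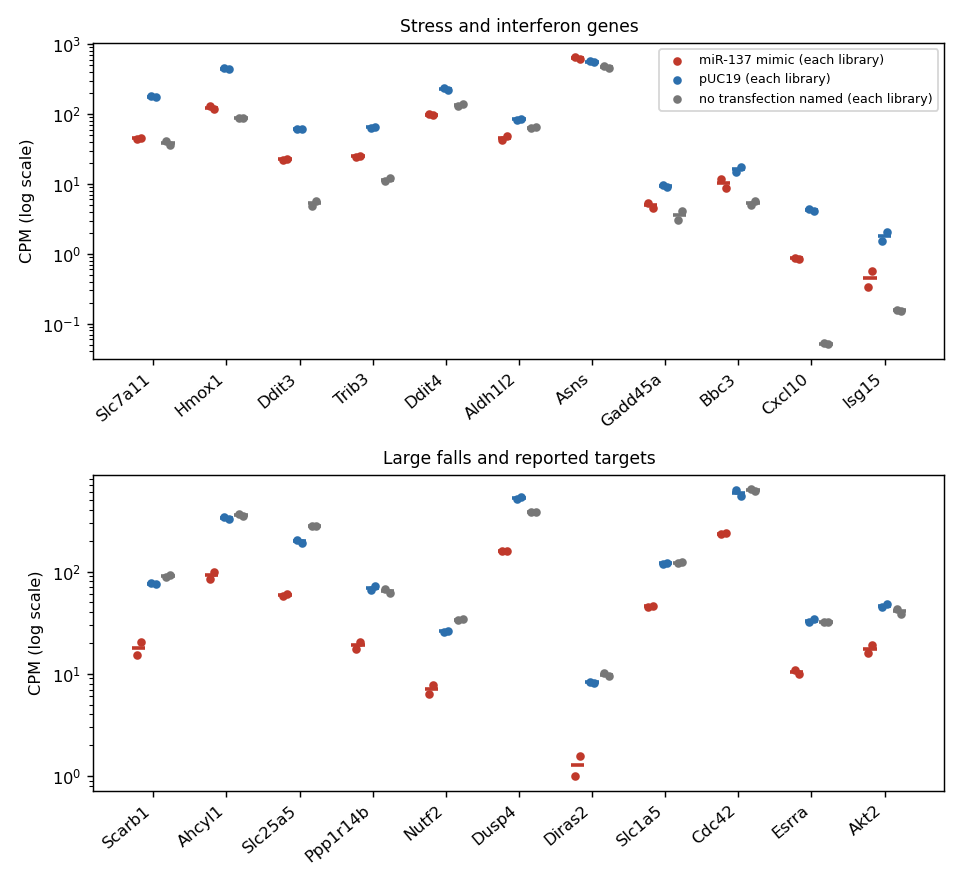
Each point is a library in serum, red for miR-137 mimic, blue for pUC19 and grey for DKO_2 cells with no transfection named, and the bar is the mean of 2 libraries; the y axis is CPM on a log scale. In the upper panel Slc7a11, Hmox1, Ddit3 and Cxcl10 are highest in the pUC19 libraries, and in the lower panel Scarb1, Ahcyl1, Cdc42 and Esrra are low in the mimic libraries while the other groups lie close together.

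The promoters of these list genes were read for TGATGNAA, the core of the C/EBP-ATF composite element. Both strands were read, over the 250 bases before and 50 bases after each gene's start in RefSeq (GRCm38.p6). Of 17 tested list genes with a promoter in that table, 5 held a match (29.4%), beside 4.51% of all 27025 genes. The matches to the 2 largest changes with a match and to Asns are shown, in the direction of the gene, with the match in capitals.
Slc7a11, chr3:50443662-50443689, minus strand: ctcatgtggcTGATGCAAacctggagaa
Slc7a11, chr3:50443643-50443670, minus strand: cctggagaatTTGCATCAtcatgcagcc
Trib3, chr2:152344029-152344056, minus strand: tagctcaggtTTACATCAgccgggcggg
Asns, chr6:7693215-7693242, minus strand: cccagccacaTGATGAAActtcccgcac
The Slc7a11 promoter held the match on each strand, with the 2 windows overlapping. Ddit3 and Ddit4 had no match in this window. A match is a description of the letters and does not show binding.

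Genes of the interferon list fell no more often than all genes. Of 22 interferon and nucleic acid sensor genes tested, 5 fell (22.7%, beside 22.5%), 1 rose and 16 did not pass the test. The pUC19 cells against DKO_2 had 5 of them higher and 1 lower (median -0.03), where 10.7% of all genes were higher and 15.5% lower. Cxcl10, an interferon-induced chemokine, had 0.864 and 0.857 CPM with mimic, against 4.37 and 4.16 CPM with pUC19, and 0.053 and 0.051 CPM in DKO_2 cells (-2.30 ± 0.27 against pUC19, adjusted p = 9.33e-07). Isg15, a ubiquitin-like interferon product, had 0.333 and 0.571 CPM with mimic, against 1.53 and 2.04 CPM with pUC19, and 0.158 and 0.153 CPM in DKO_2 cells (-1.95 ± 0.41 against pUC19, adjusted p = 0.000589). Mx2, an antiviral GTPase, was among the falls at -1.65 ± 0.29 (adjusted p = 0.000109). The rise was lost without miR-137 replicate 1 and without pUC19 replicate 1. Of 16 p53 targets, 7 fell (43.8%, beside 22.5% of all genes), 2 rose (12.5%, beside 23.1%) and 7 did not pass the test. Without miR-137 replicate 1 the falls were 4 and the rises 1, and without pUC19 replicate 1 the rises were 1. Against DKO_2 cells 7 p53 targets were higher and 3 lower with mimic, and likewise 7 and 3 with pUC19. Over all genes 23.7% were higher and 27.5% lower with mimic, and 10.7% and 15.5% with pUC19. Gadd45a, a growth arrest gene, had 5.39 and 4.57 CPM with mimic, against 9.61 and 8.95 CPM with pUC19 and 3.06 and 4.12 CPM in DKO_2 cells. Bbc3, the apoptosis inducer PUMA, had 11.8 and 8.71 CPM with mimic, against 15.02 and 17.7 CPM with pUC19 and 5.01 and 5.75 CPM in DKO_2 cells. Cdkn1a, the CDK inhibitor p21, went against that pattern and was highest with mimic, at 119 and 106 CPM, against 56.1 and 60.3 CPM with pUC19 and 19.1 and 18.6 CPM in DKO_2 cells (0.96 ± 0.10 against pUC19, adjusted p = 3.45e-07). The miR-138 mimic cells had 14.3 CPM of Cdkn1a.

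Genes of cholesterol synthesis and uptake were mostly lower with mimic in serum, against pUC19, DKO_2 and miR-138 mimic cells alike. Against pUC19, 18 of 23 tested fell (78.3%, beside 22.5% of all genes), 1 rose (4.35%, beside 23.1%) and 4 did not pass the test (median -0.35). Against DKO_2 cells, 15 were lower and 2 higher (median -0.30), where 27.5% of all genes were lower and 23.7% higher. Against miR-138 mimic 17 were lower and 1 higher (median -0.43), beside 32.7% and 30.7% of all genes. All 3 contrasts share the miR-137 libraries. The pUC19 cells against DKO_2 had 4 higher and 2 lower (median 0.08), beside 10.7% and 15.5% of all genes. Cyp51, lanosterol demethylase, had 127 and 122 CPM with mimic, against 218 and 210 CPM with pUC19, and 231 and 203 CPM in DKO_2 cells (-0.78 ± 0.07, adjusted p = 2.91e-08). Insig1, which retains the SREBP activator in the endoplasmic reticulum, had 46.6 and 41.0 CPM with mimic, against 72.4 and 76.2 CPM with pUC19 (-0.76 ± 0.08, adjusted p = 3.42e-07). Msmo1, a sterol methyl oxidase, and Stard4, a cholesterol carrier, stood at -0.63 ± 0.06 and -0.65 ± 0.06 (adjusted p = 5.7e-08 and 7.76e-08).

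Of 22 lysosomal and MITF-TFE genes, 9 fell (40.9%), 2 rose (9.09%) and 11 did not pass the test (median -0.13). Over all genes 22.5% fell and 23.1% rose. The 2 that rose were 1 without miR-137 replicate 1, without either pUC19 replicate, with no low-count filter and under DESeq2. Npc1, which exports cholesterol from the lysosome, had 22.8 and 25.6 CPM with mimic, against 60.8 and 63.4 CPM with pUC19, and 57.2 and 55.5 CPM in DKO_2 cells (-1.36 ± 0.08, adjusted p = 4.65e-11). Hexa, a lysosomal hexosaminidase subunit, was lower at -0.65 ± 0.09 (adjusted p = 4.45e-06). Against DKO_2 cells the list gave 8 higher and 6 lower, with a median of 0.09, where 23.7% of all genes were higher and 27.5% lower.

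The largest rises held several neuronal and transcription factor genes. Foxp2, a transcription factor of brain development, had 6.05 and 5.43 CPM with mimic, against 1.53 and 1.41 CPM with pUC19 (1.95 ± 0.22, adjusted p = 6.94e-07). Mycn, the MYC family factor that drives many neuroblastomas, had 223 and 198 CPM with mimic, against 69.5 and 74.5 CPM with pUC19 (1.55 ± 0.07, adjusted p = 8.83e-13), and 105 and 110 CPM in DKO_2 cells. Its relative Myc went the other way, with 131 and 145 CPM with mimic against 254 and 271 CPM with pUC19 (-0.93 ± 0.06, adjusted p = 1.81e-10). Arid3a, a DNA-binding factor, had 55.1 and 52.1 CPM with mimic, against 16.2 and 20.0 CPM with pUC19 (1.58 ± 0.09, adjusted p = 3.55e-11). Among abundant factors, Nfya, a subunit of the CCAAT-box factor NF-Y, had 217 and 222 CPM against 91.7 and 93.5 CPM (1.24 ± 0.05, adjusted p = 6.93e-13). Ebf3, a neuronal differentiation factor, had 511 and 515 CPM against 233 and 226 CPM (1.16 ± 0.05, adjusted p = 6.93e-13). With miR-138 mimic against pUC19, Arid3a (1.135) and Mycn (0.55) were higher too. There Myc (-0.60), Nfya (-0.18) and Ebf3 (-0.30) were lower, and Foxp2 did not pass the test.

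Other large rises were in signalling and membrane genes. Thbs1, the matrix protein thrombospondin 1, had 14.6 and 13.5 CPM with mimic, against 4.37 and 3.77 CPM with pUC19 (1.77 ± 0.17, adjusted p = 5.99e-08). Cish, a SOCS-family inhibitor of cytokine signals, had 24.7 and 22.9 CPM against 7.54 and 6.76 CPM (1.73 ± 0.15, adjusted p = 2.22e-08). Nptx1, a neuronal pentraxin of excitatory synapses, had 7.71 and 8.21 CPM against 2.35 and 2.83 CPM (1.64 ± 0.20, adjusted p = 1.29e-06), with 5.17 and 5.34 CPM in DKO_2 cells. Syt11, a synaptotagmin, had 112 and 108 CPM against 38.1 and 39.0 CPM (1.51 ± 0.10, adjusted p = 4e-10). The kinase gene Prkx stood at 1.53 ± 0.11, Pip4k2a, a phosphoinositide kinase, at 1.42 ± 0.11, Atcay, the ataxia protein caytaxin, at 1.43 ± 0.17, and Frat2, an inhibitor of GSK3, at 1.33 ± 0.22. Ankrd45, Dzank1 and Lrguk followed at 1.79 ± 0.15, 1.52 ± 0.14 and 1.48 ± 0.20. The largest adjusted p among these 7 was 4.9e-05, for Frat2. Zwint, a kinetochore protein, rose by 1.09 ± 0.06, to 359 and 330 CPM with mimic, against 157 and 166 CPM with pUC19 (adjusted p = 1.32e-11). Also higher with miR-138 mimic against pUC19 were Ankrd45 (1.56), Prkx (1.09), Lrguk (1.09), Thbs1 (1.05), Dzank1 (0.79) and Atcay (0.77). So were Pip4k2a (0.58) and Zwint (0.57). Nptx1 was lower there (-2.58), and Cish, Syt11 and Frat2 did not pass the test. Ankrd45 did not differ between the 2 mimics in edgeR's test (adjusted p = 0.0851).

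Ptbp2, the neuronal form of the polypyrimidine tract binding protein, had 213 and 197 CPM with mimic, against 93.7 and 86.9 CPM with pUC19 (1.18 ± 0.06, adjusted p = 1.06e-11). Its non-neuronal form Ptbp1, which represses Ptbp2 splicing in other cells, had 557 and 569 CPM with mimic, against 912 and 984 CPM with pUC19 (-0.75 ± 0.06, adjusted p = 1.47e-09). Ptbp1 was looked up after Ptbp2 was seen. The DKO_2 cells had 943 and 978 CPM of Ptbp1 and 73.2 and 76.0 CPM of Ptbp2, on the pUC19 side for each. The miR-138 mimic cells had 752 CPM of Ptbp1 and 61.5 CPM of Ptbp2. Celf3, a neuronal splicing regulator, had 15.6 and 14.1 CPM with mimic, against 4.37 and 4.16 CPM with pUC19 (1.79 ± 0.17, adjusted p = 7.09e-08). Elavl4, the Hu protein that stabilises neuronal messengers, had 253 and 250 CPM with mimic, against 126 and 117 CPM with pUC19 (1.05 ± 0.06, adjusted p = 2.77e-11), and stood 0.54 above DKO_2 cells.

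Of 30 genes of neuronal structure and synapse tested, 12 rose (40%), 4 fell (13.3%) and 14 did not pass the test. Over all genes 23.1% rose and 22.5% fell. The median of the list was 0.15. Tubb3, the neuronal beta-tubulin, had 75.0 and 67.3 CPM with mimic, against 31.4 and 32.9 CPM with pUC19, and 20.1 and 22.6 CPM in DKO_2 cells (1.15 ± 0.10 against pUC19, adjusted p = 3.06e-08). Dlg4, a postsynaptic scaffold, had 86.1 and 78.9 CPM with mimic, against 43.5 and 46.0 CPM with pUC19 (0.88 ± 0.07, adjusted p = 2.66e-09). Among the falls were genes of the synaptic vesicle. Syt1, the calcium sensor of release and a reported miR-137 target, had 20.2 and 21.3 CPM with mimic, against 49.8 and 47.4 CPM with pUC19 (-1.23 ± 0.08, adjusted p = 1.71e-10). Syn2, a synapsin, had 56.4 and 69.0 CPM against 143 and 142 CPM (-1.19 ± 0.08, adjusted p = 8.69e-10). Of 15 genes of catecholamine synthesis and transport, 3 rose (20%), 2 fell (13.3%) and 10 did not pass the test, so both shares lay under those of all genes. The lineage factor Hand2 rose, at 0.52 ± 0.06 (adjusted p = 3.52e-07). The enzymes fell: Dbh, which makes noradrenaline, had 3.66 and 5.43 CPM with mimic, against 13.8 and 15.4 CPM with pUC19 (-1.68 ± 0.24, adjusted p = 9.72e-06). Ddc, which makes dopamine, had 1.86 and 1.57 CPM with mimic, against 5.41 and 4.63 CPM with pUC19 (-1.55 ± 0.20, adjusted p = 3.89e-06). Th was at the detection limit in both groups and gave no call (adjusted p = 0.723).

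Genes of mitosis were higher against pUC19 in most cases, but not against DKO_2 cells. Of 30 tested, 17 rose (56.7%, beside 23.1% of all genes), 2 fell (6.67%, beside 22.5%) and 11 did not pass the test (median 0.27). The 2 that fell were 1 without either miR-137 replicate and without pUC19 replicate 1. Against DKO_2 cells 6 were higher and 7 lower (median 0.01), where 23.7% of all genes were higher and 27.5% lower. The pUC19 cells against DKO_2 had 0 higher and 20 lower in edgeR's test (median -0.25), beside 10.7% and 15.5% of all genes. Against miR-138 mimic 29 of the 30 were higher with miR-137 mimic and 1 was lower (median 0.91), beside 30.7% and 32.7% of all genes. Prc1, the central spindle bundler, had 517 and 505 CPM with mimic, against 331 and 300 CPM with pUC19, and 406 and 395 CPM in DKO_2 cells (0.69 ± 0.07 against pUC19, adjusted p = 2.32e-07). Kif23, a cytokinesis kinesin, stood at 0.63 ± 0.07 (adjusted p = 5.31e-07). Mki67, the proliferation marker, had 1030 and 1108 CPM with mimic, against 939 and 830 CPM with pUC19, and 1087 and 1034 CPM in DKO_2 cells, and 391 CPM with miR-138 mimic. Its rise of 0.27 ± 0.09 (adjusted p = 0.0186) was lost under DESeq2 (adjusted p = 0.0765), without miR-137 replicate 2 (0.22, adjusted p = 0.135) and without pUC19 replicate 2 (0.19, adjusted p = 0.17). Birc5, survivin, went against the list, with 37.0 and 45.6 CPM with mimic against 84.8 and 85.8 CPM with pUC19 (-1.05 ± 0.09, adjusted p = 1.57e-08).

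Of 30 DNA replication genes, 7 rose (23.3%, at the background of 23.1%), 2 fell (6.67%, beside 22.5%) and 21 did not pass the test. The 7 became 3 without miR-137 replicate 1, and the 2 became 1 without either miR-137 replicate and without pUC19 replicate 2, and 4 in a fit of the compared libraries alone. Pola1, the catalytic subunit of polymerase alpha, and Mcm4, a subunit of the replicative helicase, were higher at 0.36 ± 0.08 and 0.34 ± 0.09 (adjusted p = 0.00177 and 0.00434), and neither passed the test against DKO_2 cells. Gins2, a helicase cofactor, had 31.1 and 31.9 CPM with mimic, against 62.2 and 61.7 CPM with pUC19 (-0.98 ± 0.10, adjusted p = 1.16e-07). Of 23 genes of G1 control, 10 rose (43.5%, beside 23.1%), 3 fell (13%, beside 22.5%) and 10 did not pass the test. Besides Cdkn1a, Ccnd3 and Myc, given above, E2f5, a repressive E2F, had 59.4 and 54.5 CPM with mimic, against 30.8 and 26.7 CPM with pUC19 (0.98 ± 0.09, adjusted p = 2.26e-08).

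**Figure D4:**
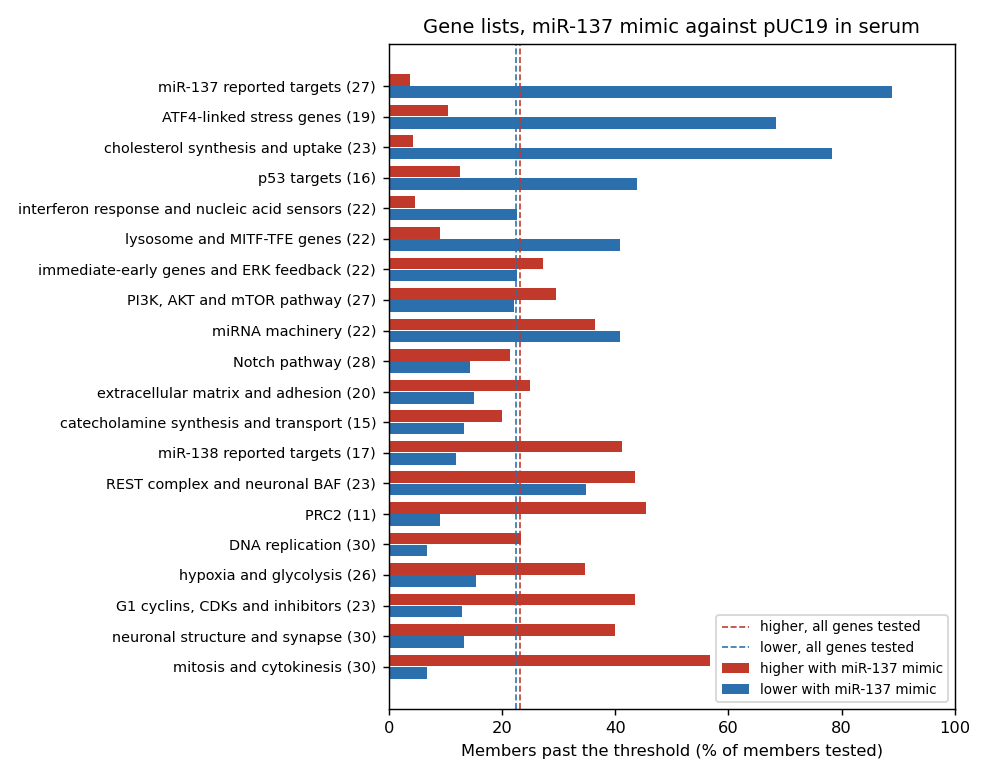
Each pair of bars is a gene list, with the number of members tested in parentheses; the x axis is the share of those members called higher (red) or lower (blue) with miR-137 mimic against pUC19 in serum. Dashed lines mark the shares over all genes tested, 23.1% and 22.5%, and the lists with the largest shares of falls are the reported miR-137 targets (88.9%), the cholesterol genes (78.3%) and the ATF4-linked genes (68.4%).

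Of 23 genes of the REST complex and neuronal BAF, 10 rose (43.5%), 8 fell (34.8%) and 5 did not pass the test. The shares of all genes were 23.1% higher and 22.5% lower. Ss18, a BAF subunit of dividing progenitors, had 20.8 and 22.2 CPM with mimic, against 69.1 and 60.9 CPM with pUC19, and 83.9 and 80.7 CPM in DKO_2 cells (-1.60 ± 0.09, adjusted p = 2.25e-11). Rcor2, a corepressor partner of LSD1, fell by 0.69 on the log2 scale (adjusted p = 5.56e-08), as Kdm1a did. Hdac2, a histone deacetylase, was higher against pUC19 at 0.51 ± 0.07 (adjusted p = 3.02e-06) and stood at -0.01 against DKO_2 cells (adjusted p = 0.943). Of 11 PRC2 genes, 5 rose (45.5%), 1 fell (9.09%) and 5 did not pass the test, Ezh2 among them. The histone-binding subunits Rbbp7 and Rbbp4 were higher at 0.33 ± 0.06 and 0.35 ± 0.06 (adjusted p = 8.76e-05 and 9.1e-05), but Rbbp7 did not pass the test against DKO_2 cells (0.09, adjusted p = 0.201). Mtf2, an accessory subunit named after its value was seen, was lower at -0.19 ± 0.08 (adjusted p = 0.0428), a call lost under DESeq2 (adjusted p = 0.0716) and when any of the 4 libraries was left out (adjusted p = 0.0527 to 0.236), and each of these left 0 that fell in the list. Of 28 Notch pathway genes, 6 rose (21.4%), 4 fell (14.3%) and 18 did not pass the test. Both shares lay under those of all genes, 23.1% and 22.5%. Among the falls Maml1, the nuclear coactivator, had 53.5 and 55.2 CPM with mimic against 101 and 111 CPM with pUC19 (-0.96 ± 0.07, adjusted p = 7.65e-10), and Rbpj, the DNA-binding partner, stood at -0.72 ± 0.11 (adjusted p = 1.4e-05). Maml3, a related coactivator, was higher at 0.44 ± 0.08 (adjusted p = 0.000111).

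The miRNA machinery also moved both ways, with 9 of 22 genes lower (40.9%), 8 higher (36.4%) and 5 that did not pass the test, and the 9 became 5 without pUC19 replicate 1. Over all genes 22.5% were lower and 23.1% higher. Ago1 and Ago3, which encode Argonaute proteins, were lower: Ago1 had 41.8 and 45.5 CPM with mimic, against 81.9 and 76.5 CPM with pUC19 (-0.86 ± 0.07, adjusted p = 4.95e-09), and Ago3 had 41.0 and 46.0 CPM against 90.5 and 85.4 CPM (-1.02 ± 0.09, adjusted p = 2.27e-08). Ago1 was also low with miR-138 mimic, at 39.6 CPM, while the DKO_2 cells had 88.8 and 88.2 CPM. Among the rises were Lin28b, which blocks let-7 processing, at 0.63 ± 0.09 (adjusted p = 5.32e-06), and Tut4, a uridylating enzyme, at 0.62 ± 0.06 (adjusted p = 4.74e-08).

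Signalling, metabolic and matrix lists stayed near the background shares, 23.1% higher and 22.5% lower over all genes, or split between directions. Of 27 PI3K, AKT and mTOR genes, 8 rose (29.6%), 6 fell (22.2%) and 13 did not pass the test. Akt2, the insulin-linked AKT kinase and a reported target, had 16.1 and 19.1 CPM with mimic, against 44.6 and 48.0 CPM with pUC19 (-1.40 ± 0.10, adjusted p = 1.05e-09). Pdpk1, the kinase that activates AKT, was higher at 0.46 ± 0.05 (adjusted p = 4.34e-07). Of 22 immediate-early and ERK feedback genes, 6 rose (27.3%), 5 fell (22.7%) and 11 did not pass the test, and the 5 became 3 without miR-137 replicate 2 and without pUC19 replicate 2. Fos, an AP-1 factor, had 13.5 and 12.4 CPM with mimic, against 26.0 and 28.7 CPM with pUC19, and 10.1 and 9.31 CPM in DKO_2 cells (-1.07 ± 0.11 against pUC19, adjusted p = 2.36e-07). Dusp5, a nuclear ERK phosphatase, was lower at -1.37 ± 0.18 (adjusted p = 4.92e-06), and Spry1, an inhibitor of receptor signalling to ERK, was higher at 0.81 ± 0.10 (adjusted p = 1.66e-06). Of 26 hypoxia and glycolysis genes, 9 rose (34.6%), 4 fell (15.4%) and 13 did not pass the test, and the 4 became 2 without miR-137 replicate 2 and without pUC19 replicate 1. Aldoc, the brain aldolase, was lower at -1.46 ± 0.23 (adjusted p = 3.02e-05), Hk1, hexokinase 1, was higher at 0.41 ± 0.07 (adjusted p = 4.13e-05), and Bnip3, a mitophagy receptor, was higher at 0.50 ± 0.08 (adjusted p = 7.04e-05), though not against DKO_2 cells (0.13, adjusted p = 0.169). Of 20 matrix and adhesion genes, 5 rose (25%), 3 fell (15%) and 12 did not pass the test, and the 3 became 1 without pUC19 replicate 2. Besides Thbs1, Nid1, a basement membrane linker, was higher at 0.37 ± 0.05 (adjusted p = 6.11e-06), and Itgav, the integrin alpha V chain, was lower at -0.79 ± 0.06 (adjusted p = 9.08e-10).

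The libraries kept 2 days without serum after transfection give the same contrast in separate libraries. Their medium was changed 48 h after transfection and RNA was taken 2 days after that, so serum withdrawal and time since transfection cannot be told apart. There, 2598 genes were higher with miR-137 mimic (20.5%) and 2808 lower (22.2%). Of the 513 genes at least 2-fold lower in serum, 303 (59.1%) were also lower without serum and 23 were higher, with medians of -1.33 in serum and -0.66 without it. Of the 128 genes at least 2-fold higher in serum, 94 (73.4%) were also higher and 0 were lower in edgeR's test without serum, with medians of 1.24 and 0.97. The genes were picked by their serum values, so the serum medians are descriptions. Counted over all calls, 1531 genes were lower in both media, 53.8% of the serum list and 54.5% of the list without serum, and 1392 were higher in both, 47.6% and 53.6%. The effect itself differed between the media for 2945 genes (23.3%) in the interaction test.

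Without serum 21 of the 27 reported targets were lower with mimic and 2 were higher, with a median of -0.45. The interaction test was passed by 11 of the 27. Over all genes 22.2% were lower, 20.5% were higher and 23.3% passed the interaction test. Mitf had 12.3 ± 1.6 CPM with mimic and 31.1 ± 1.8 CPM with pUC19 without serum (SD, n = 2 each), a log2 fold change of -1.33, and its interaction did not pass the test (adjusted p = 0.342). Cdc42 had 355 ± 1.8 CPM with mimic and 468 ± 2.1 CPM with pUC19 (SD, n = 2 each), a fall of 0.40 on the log2 scale that was smaller than in serum (interaction 0.93, adjusted p = 1.59e-07). Kdm1a did not pass the test without serum (-0.07, adjusted p = 0.249; interaction adjusted p = 0.00105). Diras2, Scarb1, Rims4 and Slc25a5 fell there as well, by 1.95, 1.81, 1.98 and 1.71 on the log2 scale, and none of the 4 passed the interaction test.

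Most ATF4-linked genes changed direction between the media, but not all. In serum 13 of 19 were lower with mimic than with pUC19, and without serum 17 were higher and 1 was lower (median 0.37), and 17 of the 19 passed the interaction test. Ddit3 without serum had 32.5 ± 0.9 CPM with mimic and 10.9 ± 3.0 CPM with pUC19 (SD, n = 2 each), a log2 fold change of 1.59 against -1.45 in serum (interaction 3.04, adjusted p = 2.76e-10). In serum its means were 22.5 CPM with mimic and 61.4 CPM with pUC19. For Slc7a11 the pUC19 mean was 179 CPM in serum and 32.4 CPM without it, and the mimic mean 45.0 and 40.7 CPM. Psat1 and Asns were higher with mimic in both media. Ddit4 was lower in both, with means of 230 and 340 CPM with pUC19 and 98.5 and 293 CPM with mimic. Hmox1 had 39.4 ± 0.3 CPM with mimic and 29.0 ± 2.8 CPM with pUC19 without serum (SD, n = 2 each; interaction 2.29, adjusted p = 7.31e-11). Genes of mitosis, higher in serum, gave 2 higher and 5 lower without serum (median -0.05), and DNA replication genes gave 0 higher and 14 lower (median -0.20). Cholesterol genes gave 5 higher and 8 lower (median 0.05). Neuronal genes gave 17 higher and 4 lower of 30 (median 0.54). Beside these lists, 20.5% of all genes were higher and 22.2% lower without serum, and 23.3% passed the interaction test. Tubb3 without serum had 244 ± 11 CPM with mimic and 44.7 ± 9.7 CPM with pUC19 (SD, n = 2 each), a rise of 2.46 on the log2 scale that was larger than in serum (interaction 1.31, adjusted p = 2.08e-06). Celf3 had 13.4 ± 0.6 CPM with mimic and 0.526 ± 0.41 CPM with pUC19 (interaction 2.91, adjusted p = 9.97e-06, n = 2 each, edgeR). Elavl4, higher in serum, had 193 ± 7.7 and 192 ± 5.8 CPM (SD, n = 2 each; interaction -1.04, adjusted p = 2.33e-08).

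**Figure D5:**
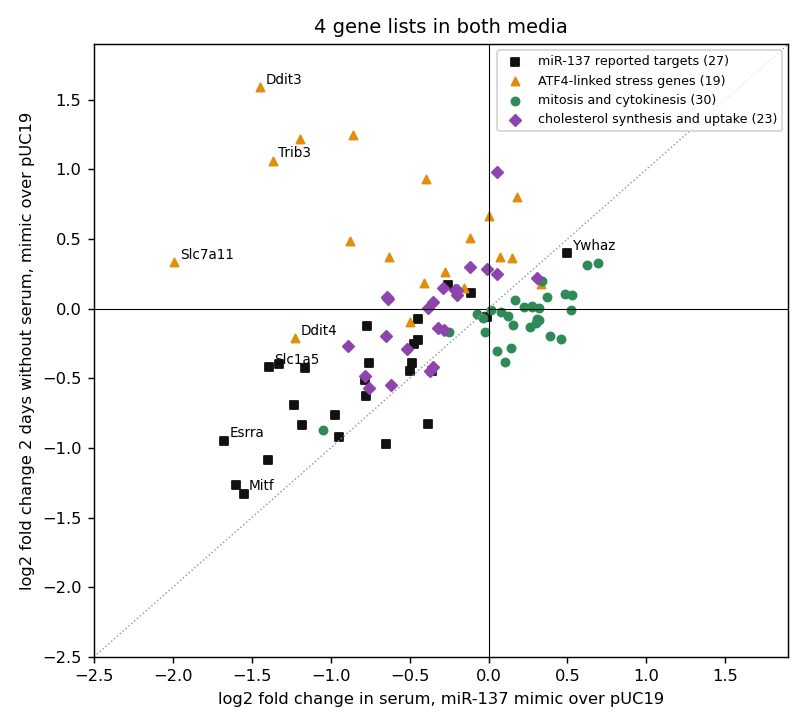
Each point is a gene of 1 of 4 lists, with its log2 fold change of miR-137 mimic over pUC19 in serum on the x axis and 2 days without serum on the y axis; the dotted line marks equal values. Reported targets (black squares) lie mostly in the lower left, and ATF4-linked genes (orange triangles) mostly in the upper left, with Ddit3 at -1.45 in serum and 1.59 without.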

How the data were processed

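PolyA RNA-seq of mouse CAD cells was deposited by the authors as raw read counts per gene for each library, made with STAR on mm9 per the submitters' processing notes. No version or annotation is stated in the labels. Libraries were stranded with single-end reads per the labels' protocols, and the stranded counts of column 4 were used (column 3 held 3.24 to 3.67% of both). Reads mapping to several places (16.43 to 18.51%), unmapped reads (4.53 to 6.67%) and reads on no gene (5.34 to 9.26%) stayed out. The 14 libraries held 12740836 to 25582125 assigned reads. Of 37310 identifiers 32620 (87.4%) matched a symbol.

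All 7 groups were fitted together with edgeR 4.0.16 (limma 3.58.1, R 4.3.3): filterByExpr (minimum count 10, total 15), TMM, a two-sided quasi-likelihood test and Benjamini-Hochberg adjustment over 12655 genes. Levels are CPM on TMM-scaled libraries, except marker sums, which use the total assigned reads. Alternatives were RLE scaling, no low-count filter, DESeq2 1.42.0, the replicate number as a block, unstranded counts, a fit of only the libraries compared, leaving out each library, a CPM minimum of 20 for named genes and, chosen after seeing the data, DKO_2 cells in place of pUC19. In simulated data made from these libraries for this comparison (12325 and 12340 genes, 200 changed), 83.5% of 1.5-fold and 96.5% of 2-fold changes were recovered, with 7.7 and 5.4% false calls. Figures were drawn in Python 3.11.15 (pandas 2.3.3, matplotlib 3.10.9).

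The groups, gene lists and comparisons were chosen with earlier results of these data known. Genes were named by rule: the hairpin genes; the 15 largest rises and 15 largest falls called with at least 5 CPM, separate groups and a full symbol; the 5 largest of each with a mean of at least 100 CPM; up to 5 members of each list by lowest adjusted p; and Kdm1a, Ezh2, Mib1, Cdk6, Mitf, Tubb3, Th, Dbh, Mki67 and Cdkn1a. Others are said to be named after their values were seen. Some genes the rule names are not reported here.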

Additional observations from a re-analysis of the deposited data

Results flagged for a closer look

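The effect of miR-137 mimic over pUC19 differed between the media in the interaction test for 2945 genes. Values below are the log2 fold change without serum minus that in serum for genes named above that passed this test, so a positive value is a higher fold change without serum. The largest positive differences were Ddit3 3.04, Cxcl10 2.95, Celf3 2.91, Isg15 2.83, Trib3 2.43, Gsta3 2.34, Slc7a11 2.32, Hmox1 2.29, Hist1h2bc 1.68, Gadd45a 1.56, Mx2 1.55 and Fos 1.41. Next in size were Cdkn1a 1.37, Aldh1l2 1.36, Tubb3 1.31, Lpp 1.19, Ap1s3 1.18, Dusp5 1.17, Ddit4 1.01, Slc1a5 0.97, Cdc42 0.93, Dusp4 0.88, Mxd1 0.77 and Cyp2s1 0.76. Smaller positive differences were Npc1 0.76, Kdm5b 0.73, Ahcyl1 0.73, Esrra 0.73, Msmo1 0.70, Bbc3 0.67, Syt11 0.65, Asns 0.62, Nutf2 0.61, Gins2 0.58, Ppp1r14b 0.57 and Hexa 0.56. Then came Syt1 0.54, Ptbp1 0.48, Ago3 0.47, Nid1 0.45, Stard4 0.45, Kdm1a 0.37, Maml1 0.35, Itgav 0.34 and Cyp51 0.29.

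On the negative side the largest were Actc1 -2.80, Thbs1 -1.28, Spry1 -1.25, Mycn -1.21, Dbh -1.20, Ddc -1.19, Elavl4 -1.04, Ebf3 -0.87, Nptx1 -0.69 and Nfya -0.69. They were followed by Ptbp2 -0.63, Pip4k2a -0.63, Tut4 -0.57, E2f5 -0.53, Prkx -0.52, Lin28b -0.52, Mcm4 -0.49, Pola1 -0.41, Hdac2 -0.40, Hand2 -0.39, Prc1 -0.37 and Rbbp4 -0.32. Lesser negative values were Kif23 -0.31, Rbbp7 -0.30 and Zwint -0.26.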

How the results depend on the processing

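Every one of 94 counts of calls over all genes stayed within 1.5 times its main value under the settings listed in the methods other than DKO_2 cells in place of pUC19. The 5770 calls in serum were 5798 with RLE scaling, 5659 with no low-count filter, 5040 under DESeq2, 5709 in unstranded counts, 5883 with the compared libraries alone and 6037 with the replicate number as a block. The numbers do not pair the samples, since same-numbered libraries deviated together only at r = 0.031. With each library left out in turn the calls were 4259 to 4890 in serum, 4057 to 4751 without serum, 2049 to 3100 in the interaction, 6763 to 7220 against miR-138 mimic and 5888 to 6175 for miR-138 mimic against pUC19. In serum they were 2120 to 2487 higher and 2139 to 2445 lower, and 107 to 119 and 411 to 515 at 2-fold or more. Of 400 list counts 31 moved by over 1.5 times, as given beside each list. Of 1119 values of named genes 10 lost their call, those of Mtf2, Mki67, Asns and Sox4, and the cause was not tested. No called gene changed sign, while the uncalled Ezh2 (-0.065 to 0.059) and Th (-3.31 to 0.04) did.

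With DKO_2 cells in place of pUC19, chosen after seeing the data, 320 genes were at least 2-fold higher in place of 128. The sign turned for Slc7a11 (0.21), Hmox1 (0.49), Gadd45a (0.47), Bbc3 (0.93), Trib3 (1.11), Ddit3 (2.08), Cxcl10 (3.88), Isg15 (1.49), Fos (0.42) and Hdac2 (-0.007). Isg15 and Hdac2 did not pass edgeR's test against DKO_2 cells (adjusted p = 0.0624 and 0.943). Of 109 named genes called against pUC19, these 10 turned in sign, called or not. Another 22 kept their sign at a value smaller by over 1.5 times, among them Gsta3, Hist1h2bc, Mycn, Elavl4 and Rbbp7, and 5 at a larger one. The cause was not tested. The planned count of seed matches in 3′ UTRs was not run, as no UTR sequence was used here. With a minimum of 20 in place of 5 CPM for the genes named by size, 9 of the 15 falls and 6 of the 15 rises were shared. Genes with few reads, such as Isg15 and Cxcl10, are limited by depth.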
